A study of Mus musculus with 8 samples.

Results

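The genes examined here were 43 genes of the cell cycle and of DNA replication, listed by symbol, among 23360 genes in the deposited files. They comprised 6 G1 cyclin and CDK2 genes, 5 genes of CDK inhibitors, 11 replication genes, 16 mitosis genes, 3 genes of the RZZ complex of the kinetochore and 2 transcription factor genes. A row was taken for each symbol by its RefSeq identifier, and where a symbol had several rows the one with the highest total was kept. All 43 were found, and 42 reached a scaled read count of 10 in 4 or more libraries and were tested. Cdkn2a, whose transcripts encode inhibitors linked to senescence, did not reach that level.

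The tissue was the inguinal fat pad, a subcutaneous white depot of the groin, from mice aged 6 weeks. The Lsd1 KO group, with 4 libraries, carried floxed Lsd1 and an Adipoq-Cre transgene, whose promoter is active in adipocytes, so that other cells of the pad keep the gene. The Control group, also with 4 libraries, carried floxed Lsd1 alone. Mice with Adipoq-Cre alone were not analysed here, and the transgene and the loss of Lsd1 cannot be told apart. Kdm1a encodes LSD1, which removes methyl groups from histones. The labels do not say whether each library came from a separate mouse, so the p-values speak only of the spread among these 8 samples, part of which may be technical. The comparison asked which transcripts of the pad differed between the genotypes, and here whether those of the cell cycle machinery were among them.

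A cell enters the cycle when D-type cyclins and their kinases inactivate the RB proteins, which frees E2F factors to switch on genes for DNA synthesis. Genes of mitosis follow later in the cycle, under the DREAM complex, B-MYB and FOXM1, and CDK inhibitors of the p21 and INK4 families oppose entry. Mature adipocytes have left the cycle. Dividing cells of a fat pad are mostly progenitors, immune cells and vessel cells, and the inguinal pad also holds a lymph node.

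Values below are scaled read counts, that is, read counts multiplied by 1 factor per library. The libraries held 25671837 to 32442724 recovered reads, and 1 read was worth 0.442 to 0.545 scaled reads. Kdm1a had 566, 578, 547 and 581 scaled reads in Lsd1 KO replicates 1 to 4, against 699, 685, 799 and 735 in Control replicates 1 to 4. All 4 Lsd1 KO libraries lay below every Control, with a log2 fold change of -0.36 (SE 0.08, limma adjusted p = 0.0498), a call that was lost when any 1 library was left out (adjusted p 0.0579 to 0.152). Summed adipocyte markers, 10 genes, were at 321350.0 to 354548 in Lsd1 KO pads and 432448 to 547330.1 in Control pads, and 1 of the 10, the lipid droplet gene Cidec, was called lower. Of the 10, 9 had negative log2 fold changes (median -0.26), and 4 lay lower in every Lsd1 KO library, beside 3.58% of all genes tested. DESeq2 on recovered reads called 4 of the 10, beside 5.32% of all genes. The part of these markers in the results below was not tested. Skeletal muscle markers differed widely between libraries. Their 9 genes summed to 181432, 173075, 11845 and 104933 in Lsd1 KO replicates 1 to 4, against 22938, 26427, 35113 and 7920.1 in Control replicates 1 to 4. The libraries with much muscle RNA were thus Lsd1 KO replicates 1, 2 and 4, and results are given with and without them where that changes a call.

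Among the 42 genes tested, 1 was higher and 1 was lower in Lsd1 KO fat. Ccnd2, the gene of cyclin D2, rose 1.45-fold, and Zwilch, the gene of a kinetochore protein, fell to 0.395 of its Control level. No replication gene and no mitosis gene passed the threshold (limma, Benjamini-Hochberg adjusted p under 0.05). The 2 called genes made up 4.76% of the 42, beside 1.64% of all 14591 genes tested, of which 1.28% were called higher and 0.356% lower. On recovered reads, edgeR called the same count of 2, beside 1.49% of all genes, and DESeq2 called 4, beside 5.32% of all genes. The number called over all genes was 239. It was 87 without Lsd1 KO replicate 4, 101 without Lsd1 KO replicate 2, 449 without Lsd1 KO replicate 3, 135 without Control replicate 1 and 138 without Control replicate 4. Fold changes were taken as Lsd1 KO minus Control after log2(value + 1), so differences of genes with low counts are understated. In a whole tissue, fewer cells of a type and less RNA per cell cannot be told apart.

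The median log2 fold change of the 42 genes was 0.13, beside 0.02 over all genes tested. It was positive in 32 of the 42 and negative in 10, while 54.6% of all genes tested had a positive value. Under the other scalings tried, 31 to 33 of the 42 were positive. There were 30 with edgeR or DESeq2 on recovered reads and 28 with a filter at 50, which tests fewer of the 42. With 1 library left out there were 28 to 36, and without Control replicates 1 and 2 there were 28. In 5 of the 42 the groups did not overlap, with Ccnd2, Cdkn1a, Cdkn1c and Plk1 higher and Zwilch lower in every Lsd1 KO library. That is 11.9%, beside 8.65% of all genes tested (5.06% higher and 3.58% lower). An unadjusted limma p under 0.05 was found in 6 of the 42, beside 2119 of all 14591 genes tested.

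**Figure D1:**
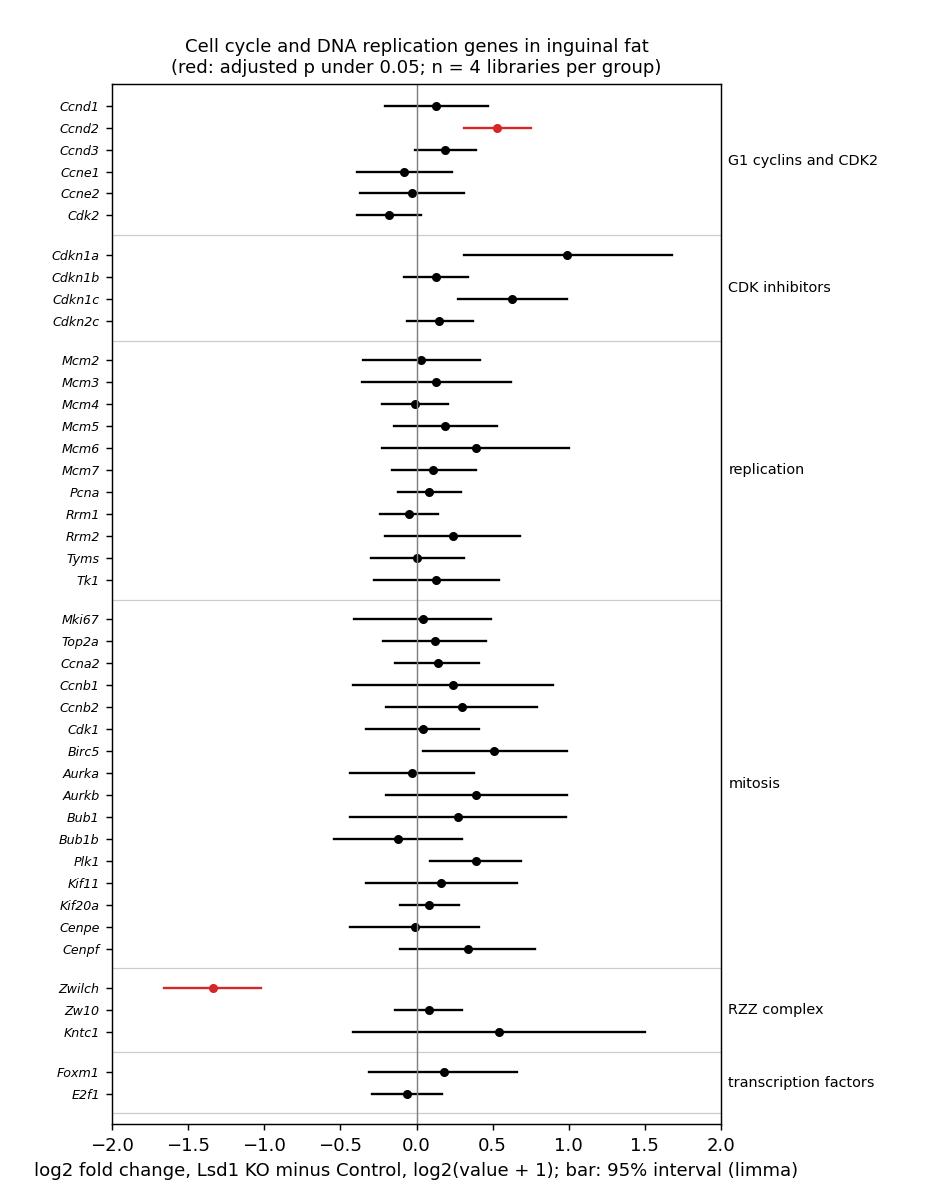
Log2 fold change (Lsd1 KO minus Control, on log2(value + 1)) of the 42 tested genes, by role, with the 95% interval of limma as a bar and n = 4 libraries per group. Ccnd2 at 0.53 and Zwilch at -1.34 (red) passed the threshold, and the intervals of all 11 replication genes crossed 0.

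The D-type cyclins pair with CDK4 and CDK6 to start the cycle, and cyclin D2 is the form best known from lymphoid, pancreatic and ovarian cells. Ccnd2 had 5131, 4584, 4626 and 4762 scaled reads in Lsd1 KO replicates 1 to 4, against 3868, 2853, 3229 and 3322 in Control replicates 1 to 4. Every Lsd1 KO library lay above every Control, by at least the gap between 4584 in Lsd1 KO replicate 2 and 3868 in Control replicate 1. The means were 4776 ± 249 in Lsd1 KO fat and 3318 ± 419 in Control fat (SD, n = 4 each), a log2 fold change of 0.53 (SE 0.10, 95% interval 0.31 to 0.75, limma adjusted p = 0.0272). Lsd1 KO replicate 3, in which muscle markers were low, was above every Control too. The part of muscle RNA in the Ccnd2 values was not tested.

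Ccnd2 (NM_009829) occupies chromosome 6, bases 127125162 to 127152188 of GRCm38.p6. Its exons share 368 bases with the antisense gene 9330179D12Rik, which averaged 10.4 ± 2.89 in Lsd1 KO and 10.4 ± 3.48 in Control scaled reads (SD, n = 4 each), and 372 bases with Gm43126, another antisense gene, which was not analysed here. The nearest genes are Tigar, 15609 bases away, with a log2 fold change of 0.21 (limma adjusted p = 0.474), and Gm38404, which was not analysed here. The call of Ccnd2 was lost in 7 of 20 alternative settings. Among single libraries left out, these were Control replicates 2, 3 and 4 and Lsd1 KO replicates 1, 2 and 4, with adjusted p of 0.0554 to 0.0997 and log2 fold changes of 0.46 to 0.55. The last setting that lost it left Lsd1 KO replicate 3 as the sole Lsd1 KO library (0.49, adjusted p = 0.232).

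The other D-type cyclins did not pass the test. Ccnd3, the gene of cyclin D3, had 2490.0, 2498, 3122 and 2649 scaled reads in Lsd1 KO replicates 1 to 4, against 2176, 2524, 2354 and 2352 in Control replicates 1 to 4. Its groups overlapped only through Control replicate 2, and its log2 fold change was 0.19 (95% interval -0.01 to 0.39, limma adjusted p = 0.378). Ccnd1, the gene of cyclin D1, ranged from 804 to 1281 in Lsd1 KO fat and from 791 to 1028 in Control fat (log2 fold change 0.13, adjusted p = 0.75). Per kilobase of transcript, Ccnd3 was the highest of the D-type cyclins in both genotypes, at 1360.5 ± 150.4 in Lsd1 KO and 1189 ± 71.8 in Control libraries. Ccnd2 was next, at 754 ± 39.3 in Lsd1 KO and 524 ± 66.2 in Control libraries (SD, n = 4 each).

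The E-type cyclins and CDK2, which carry the cell into S phase, showed small and negative differences. Ccne1 had a log2 fold change of -0.08 (limma adjusted p = 0.841), Ccne2 one of -0.03 (0.948) and Cdk2 one of -0.18 (95% interval -0.39 to 0.03, adjusted p = 0.423). The median over the 6 G1 cyclin and CDK2 genes was 0.05, with 3 positive and 3 negative. It was 0.13 without Lsd1 KO replicate 1 and -0.04 without Lsd1 KO replicate 3. Exons of Ccnd1, Ccnd3, Ccne2 and Cdk2 share 34 to 1100 bases with a protein-coding gene on the opposite strand, so reads of those bases are ambiguous unless counting used strand.

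The CDK inhibitors hold the cycle back. Cdkn1a, the gene of p21 and a textbook target of p53, had 1724, 2075, 2347 and 1602 scaled reads in Lsd1 KO replicates 1 to 4, against 597, 643, 1456 and 1521 in Control replicates 1 to 4. Every Lsd1 KO library lay above every Control, but the Control libraries fell into a low pair and a high pair, and the gap between the lowest Lsd1 KO and the highest Control library was narrow. The means were 1937 ± 339 in Lsd1 KO fat and 1054 ± 502 in Control fat (SD, n = 4 each). The log2 fold change of 0.99 (SE 0.31, 95% interval 0.31 to 1.68) did not pass over all genes (limma adjusted p = 0.174). The exact two-sided permutation p of Cdkn1a was 0.0286, the smallest that 70 assignments of 4 against 4 allow. Any gene whose groups do not overlap has this value, as 8.65% of all genes tested did, so it adds nothing to the lack of overlap.

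The low Control libraries of Cdkn1a were replicates 1 and 2, whose title numbers, 518 and 517, lie apart from the 356 to 361 of the other libraries. Without them the log2 fold change was 0.36 (adjusted p = 0.576). DESeq2 on recovered reads called Cdkn1a (0.87, adjusted p = 0.0438), and edgeR on the same reads did not (0.87, adjusted p = 0.199). The highest library of all was Lsd1 KO replicate 3, in which muscle markers were low. The part of muscle RNA in the Cdkn1a values was not tested. The exons of Cdkn1a share 273 bases with a gene model on the opposite strand that was not analysed here.

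**Figure D2:**
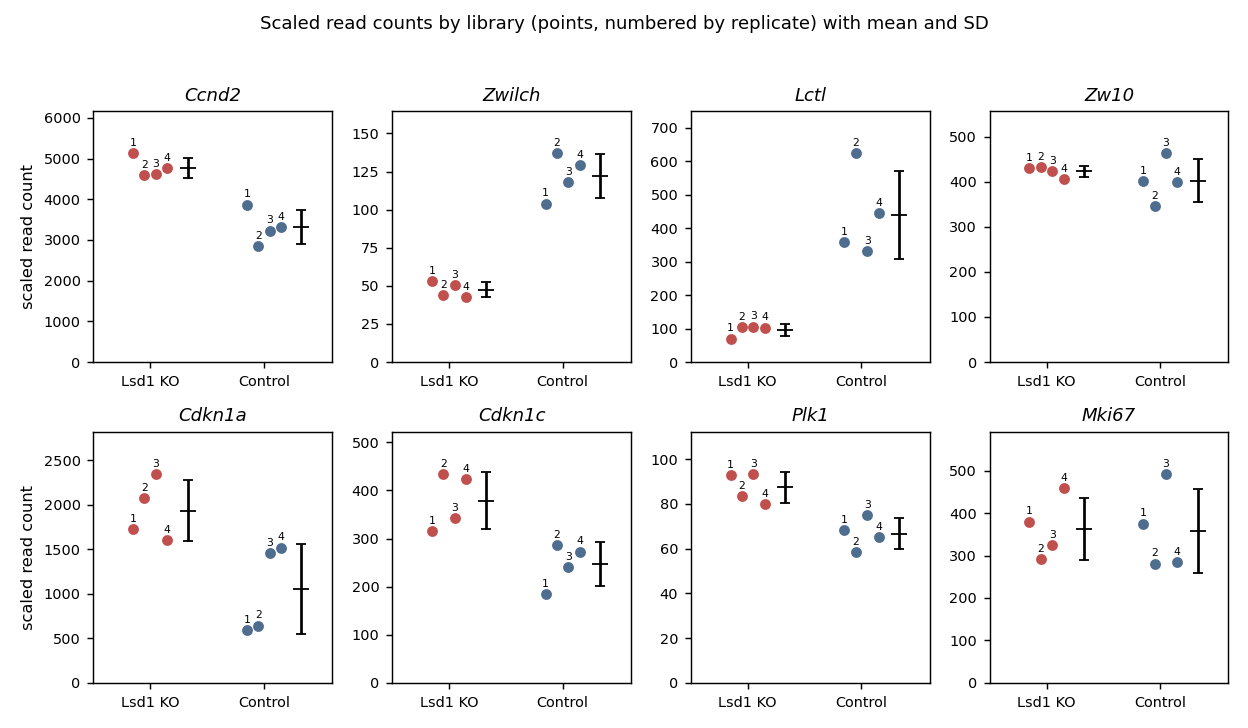
Scaled read counts of 8 genes in each library (points, numbered by replicate; Lsd1 KO left, Control right), with the mean and SD of each group of 4 as a bar. Ccnd2, Cdkn1a, Cdkn1c and Plk1 lie higher and Zwilch and Lctl lower in every Lsd1 KO library, whereas Mki67 and Zw10 overlap.

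Cdkn1c, the gene of p57 and an imprinted inhibitor of the same family, had 315, 434, 343 and 423 scaled reads in Lsd1 KO replicates 1 to 4, against 184, 287, 241 and 273 in Control replicates 1 to 4. The groups did not overlap, and the lowest of all was Control replicate 1. The log2 fold change was 0.63 (SE 0.16, 95% interval 0.27 to 0.99, limma adjusted p = 0.105). DESeq2 on recovered reads called it (0.60, adjusted p = 0.019), and edgeR did not (adjusted p = 0.117). Its exons share 625 of 2039 bases with the antisense gene Gm44732, which was not analysed here.

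The other inhibitors differed less. Cdkn1b, the gene of p27, ranged from 911 to 1056 in Lsd1 KO fat and from 821 to 1042 in Control fat (log2 fold change 0.13, limma adjusted p = 0.563). Cdkn2c, the gene of the INK4 protein p18, had the highest level per kilobase of all 43 genes, at 1937 ± 149 in Lsd1 KO and 1746 ± 184 in Control libraries (SD, n = 4 each), and a log2 fold change of 0.15 (adjusted p = 0.514). Cdkn2a averaged 10.6 ± 2.69 scaled reads in Lsd1 KO and 8.17 ± 1.92 in Control fat (SD, n = 4 each). Its row does not separate the p16 and p19 products of that locus. The 4 tested inhibitors all had positive log2 fold changes, with a median of 0.39, and none was called.

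A promoter of Cdkn1a is shown because p21 had the largest positive difference of the 43 genes and its induction by p53 is well known. The window runs from 250 bases before to 50 after an annotated RefSeq start, at chr17:29090729-29091028 on the plus strand of GRCm38.p6. Capitals mark a p53-type pair of core sites, CATGNNNNNNCATG, searched on both strands.

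Cdkn1a: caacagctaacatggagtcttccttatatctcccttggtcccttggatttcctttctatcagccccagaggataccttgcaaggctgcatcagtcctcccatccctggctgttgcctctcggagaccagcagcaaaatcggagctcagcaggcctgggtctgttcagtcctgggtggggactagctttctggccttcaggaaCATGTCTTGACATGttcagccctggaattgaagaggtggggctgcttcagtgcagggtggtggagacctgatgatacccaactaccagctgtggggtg

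The pair begins 48 bases before this start. A second annotated start of Cdkn1a, further downstream, has no such match in its window, which is not printed. Which start the counted transcripts used was not tested. Among all 32851 RefSeq promoters of this length, 0.712% hold the pair, and of the 38 promoters that matched 33 of the 43 genes this is the only one that does. The match is a description of the letters and says nothing of binding in these pads.

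A list of 20 other genes gives the wider pathway, p53 targets together with Trp53, the gene of p53 itself. Trp53 had a log2 fold change of 0.22 (limma adjusted p = 0.366). Of the 19 genes of the list that were tested, 0 passed the limma test. Log2 fold changes were positive in 10, Trp53 among them, and negative in 9, and the median was 0.01. At an unadjusted p under 0.05 there were 3 of the 19, beside 2119 of all 14591 genes tested. The largest difference was in Sesn2, a stress-induced regulator of mTOR signalling, with 174, 183, 111 and 203 scaled reads in Lsd1 KO replicates 1 to 4, against 219, 344, 327 and 237 in Control replicates 1 to 4. All Lsd1 KO libraries lay below every Control (log2 fold change -0.75, limma adjusted p = 0.135). Its direction was opposite to that of Cdkn1a, and DESeq2 on recovered reads called it (-0.77, adjusted p = 0.0111), the 1 gene of the list that it called.

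The 11 replication genes encode the 6 subunits of the MCM helicase, the sliding clamp PCNA and enzymes that supply nucleotides. None was called by limma, and their groups overlapped in all 11. The median log2 fold change was 0.11, with a range from -0.05 to 0.39. The log2 fold change was positive in 9 and negative in 2, beside 54.6% positive over all genes tested. However, Tyms, at 0.00, turned negative with TMM or RLE scaling, and Mcm4, at -0.01, turned positive with equal library totals. At an unadjusted p under 0.05 there were 0 by limma, and DESeq2 and edgeR on recovered reads also called none of the 11.

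Mcm6 had the largest difference of the replication genes. It had 349, 524, 364 and 404 scaled reads in Lsd1 KO replicates 1 to 4, against 383, 164, 434 and 337 in Control replicates 1 to 4. Control replicate 2 stood far below the other 7 libraries, which overlapped. The log2 fold change was 0.39 (SE 0.27, limma adjusted p = 0.566), and it was 0.08 without Control replicate 2. The other MCM genes lay between -0.01 and 0.19, with Mcm5 at 0.19 (adjusted p = 0.616) and Mcm7, which shares exon bases with Ap4m1 and Cops6, at 0.11 (0.722).

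Rrm2, which encodes the cycle-regulated subunit of ribonucleotide reductase, had 155, 115, 168 and 161 scaled reads in Lsd1 KO replicates 1 to 4, against 127, 105, 182 and 103 in Control replicates 1 to 4. The highest and the lowest library were both Control (log2 fold change 0.24, limma adjusted p = 0.637). Its partner Rrm1 was at -0.05 (adjusted p = 0.833). Pcna ranged from 352 to 404 in Lsd1 KO fat and from 329 to 398 in Control fat (0.08, 95% interval -0.12 to 0.29, adjusted p = 0.725). The thymidylate enzymes Tyms and Tk1 were at 0.00 and 0.13.

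The 16 mitosis genes encode the A- and B-type cyclins, CDK1, checkpoint and chromosomal passenger kinases, spindle motors and centromere proteins. None was called. The median log2 fold change was 0.15, with 13 positive and 3 negative values and a range from -0.12 to 0.51. Over all genes tested, 54.6% were positive. At an unadjusted p under 0.05 there were 2 of the 16, Birc5 and Plk1, beside 2119 of all 14591 genes tested. DESeq2 and edgeR on recovered reads called none of the 16.

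Birc5, the gene of survivin, a subunit of the chromosomal passenger complex, had 96, 65.8, 111 and 86.4 scaled reads in Lsd1 KO replicates 1 to 4, against 76.6, 53.1, 73.5 and 48 in Control replicates 1 to 4. The groups overlapped because Lsd1 KO replicate 2 lay below Control replicates 1 and 3. The log2 fold change was 0.51 (SE 0.21, 95% interval 0.04 to 0.99, limma adjusted p = 0.31). Aurkb, the kinase of the same complex, had 73.6, 61, 82.7 and 117 in Lsd1 KO replicates 1 to 4, against 65.9, 41.3, 92 and 57.8 in Control replicates 1 to 4 (0.39, adjusted p = 0.547). Its groups overlapped over most of their range.

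Plk1, a kinase that drives entry into and exit from mitosis, had 92.7, 83.3, 93.3 and 79.9 scaled reads in Lsd1 KO replicates 1 to 4, against 68.3, 58.5, 74.9 and 65 in Control replicates 1 to 4. It was the only gene of the 16 whose groups did not overlap, 6.25% beside 8.65% of all genes tested. The log2 fold change was 0.39 (SE 0.13, 95% interval 0.09 to 0.69, limma adjusted p = 0.226), with a range of 0.32 to 0.48 over the alternatives. Part of its exons, 156 bases, is shared with a gene model on the opposite strand that was not analysed here.

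Mki67, the gene of the Ki-67 antigen that marks cycling cells in pathology, had 380.1, 291, 325 and 458 scaled reads in Lsd1 KO replicates 1 to 4, against 375, 281, 492 and 284 in Control replicates 1 to 4. The groups covered nearly the same range, and the highest and lowest library were both Control. Its log2 fold change was 0.04 (95% interval -0.41 to 0.49, limma adjusted p = 0.95), an interval that does not show equal levels. Top2a, the gene of the topoisomerase that untangles sister chromatids, was at 0.12 (adjusted p = 0.756), Cdk1 at 0.04 (0.942), Ccna2 at 0.14 (0.656), Ccnb1 at 0.24 (0.754) and Ccnb2 at 0.30 (0.587). Ccnb1 rested on 12.2 to 31.8 scaled reads a library, so its difference is poorly determined. Exons of Ccna2 share 510 of 4083 bases with Exosc9 on the opposite strand, and reads of those bases are ambiguous without strand. The checkpoint kinase gene Bub1 was at 0.27 (adjusted p = 0.744), its relative Bub1b at -0.12 (0.812) and the spindle kinase gene Aurka at -0.03 (0.957).

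Of the spindle motors and centromere proteins, Cenpf was at 0.34 (limma adjusted p = 0.487), Kif11 at 0.16 (0.783) and Cenpe at -0.01 (0.98). Kif20a was at 0.08 (0.709). The exons of Kif20a share 1271 of their 4338 bases with Cdc23 on the opposite strand, which averaged 824 ± 19.5 scaled reads in Lsd1 KO and 879 ± 54.3 in Control fat (SD, n = 4 each), while Kif20a averaged 260 ± 13.7 in Lsd1 KO and 245 ± 11.1 in Control fat. Reads of the shared part cannot be told apart without strand. Exons of 15 of the 43 genes overlap another gene, in 10 cases a protein-coding one.

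Promoters of Mcm6, Birc5 and Plk1 are shown because Mcm6 and Birc5 had the largest differences of the replication and mitosis groups and Plk1 was the mitosis gene whose groups did not overlap. They lie at chr1:128359656-128359955 on the minus strand (Mcm6), chr11:117848987-117849286 on the plus strand (Birc5) and chr7:122159185-122159484 on the plus strand (Plk1) of GRCm38.p6. Capitals mark letters of E2F sites (TTTGGCGC, TTTCGCGC or TTTCCCGC), of CHR elements (TTTGAA or TTTAAA) and of CCAAT boxes, each searched on both strands.

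Mcm6: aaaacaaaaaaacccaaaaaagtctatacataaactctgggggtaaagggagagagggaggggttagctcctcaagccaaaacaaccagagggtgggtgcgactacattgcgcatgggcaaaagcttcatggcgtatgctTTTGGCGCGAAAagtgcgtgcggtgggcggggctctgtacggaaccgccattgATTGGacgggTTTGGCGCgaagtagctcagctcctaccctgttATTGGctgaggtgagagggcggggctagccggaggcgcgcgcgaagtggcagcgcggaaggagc

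Birc5: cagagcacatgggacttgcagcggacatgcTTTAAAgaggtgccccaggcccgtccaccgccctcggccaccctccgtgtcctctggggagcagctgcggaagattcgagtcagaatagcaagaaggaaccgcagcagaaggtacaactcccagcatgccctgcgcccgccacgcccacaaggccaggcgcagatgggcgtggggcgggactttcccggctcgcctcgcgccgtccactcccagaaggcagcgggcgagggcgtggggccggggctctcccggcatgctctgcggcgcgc

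Plk1: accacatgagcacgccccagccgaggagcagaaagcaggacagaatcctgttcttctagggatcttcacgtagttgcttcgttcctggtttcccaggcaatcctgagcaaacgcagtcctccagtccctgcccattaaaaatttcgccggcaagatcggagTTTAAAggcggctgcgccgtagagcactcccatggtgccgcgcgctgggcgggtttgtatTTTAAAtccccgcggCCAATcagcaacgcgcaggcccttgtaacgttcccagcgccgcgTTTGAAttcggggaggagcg

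Mcm6 has E2F letters 110, 106 and 47 bases before the start, of which the first pair overlap on opposite strands, and CCAAT boxes at 57 and 14 bases before it. Birc5 has 1 CHR element, 220 bases before the start. Plk1 has CHR elements 89 and 29 bases before and 30 after the start, and a CCAAT box at 14 bases before it. Of the 11 promoters that matched 10 replication genes, 36.4% hold an E2F site, beside 1.84% of all promoters. Of the 13 promoters of mitosis genes, 92.3% hold a CHR element, beside 27.6% of all, and 92.3% hold a CCAAT box, beside 37.4%. Of the replication promoters, 81.8% hold a CCAAT box too and 36.4% a CHR element, and 7.69% of the mitosis promoters hold an E2F site. These shares describe the sequences, and the deposited data do not bear on what binds there.

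Many replication and mitosis genes shared their highest Control library. Of these 27 genes, 22 had their highest Control value in Control replicate 3, and 14 had their lowest in Control replicate 2 and 10 in Control replicate 4. Among Lsd1 KO libraries, 11 were highest in replicate 3 and 10 in replicate 4, and 14 were lowest in replicate 2 and 9 in replicate 1. The same counts over all genes were not taken, so whether this order is particular to these genes was not tested. The 11 replication genes summed to 3458, 3529, 3422 and 3447 scaled reads in Lsd1 KO replicates 1 to 4, against 3334, 2789, 3848 and 3017 in Control replicates 1 to 4. The Control libraries lay on both sides of the narrow Lsd1 KO range. The 16 mitosis genes summed to 1968, 1723, 2027 and 2257 in Lsd1 KO replicates 1 to 4, against 1897, 1534, 2259 and 1636 in Control replicates 1 to 4, and the groups overlapped. The median within-group SD of log2 values was 0.16 in Lsd1 KO and 0.29 in Control libraries for replication genes, and 0.24 in Lsd1 KO and 0.30 in Control libraries for mitosis genes. Over all genes tested it was 0.18 in Lsd1 KO and 0.17 in Control libraries.

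**Figure D3:**
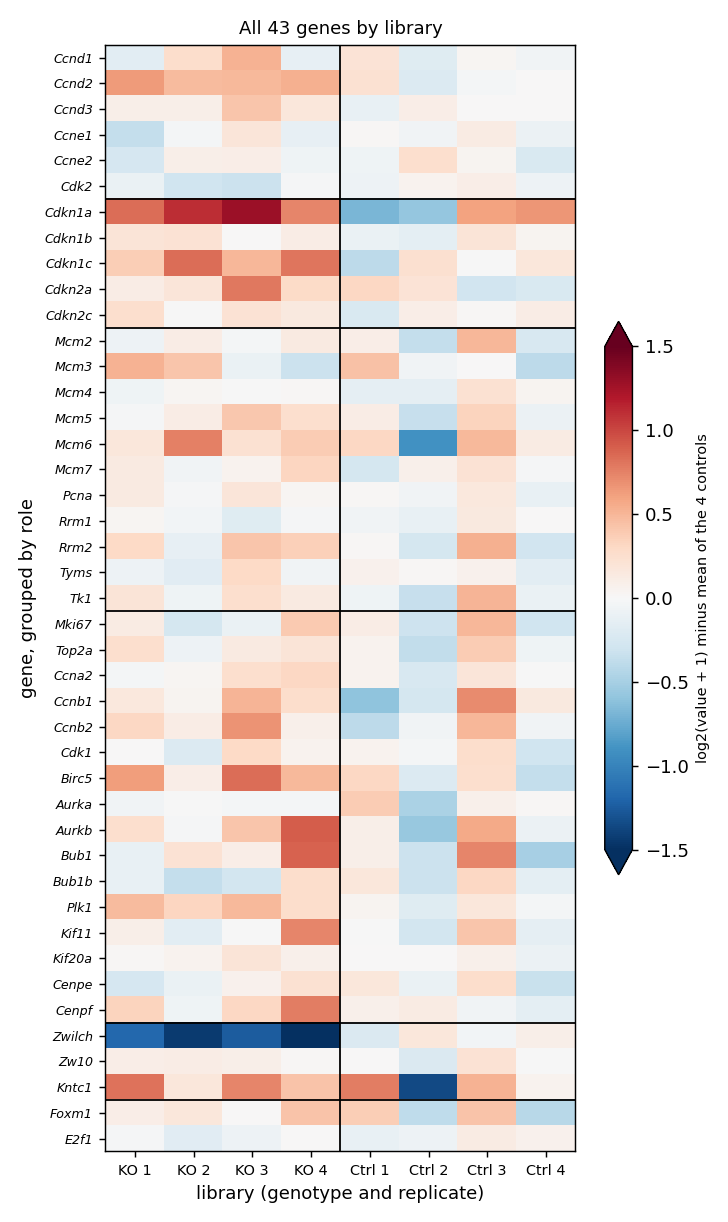
Log2(value + 1) of the 43 genes in each library minus the mean of the 4 Control libraries (colour), with genes in rows by role and Lsd1 KO libraries left of Control libraries (Ctrl). Ccnd2, Cdkn1a and Cdkn1c are raised in all 4 Lsd1 KO libraries and Zwilch is lowered in all 4, while Control replicate 3 is the highest Control in 22 of 27 replication and mitosis genes.

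Lymphocyte and lymph node markers also differed between libraries. Their 12 genes, which include B cell and T cell surface genes, summed to 13166, 17665, 17944 and 15740.2 in Lsd1 KO replicates 1 to 4, against 11718, 8981, 17634 and 14706 in Control replicates 1 to 4. Control replicate 3 was the highest and Control replicate 2 the lowest Control, as for the replication and mitosis sums, but the order of the other Control libraries and of the Lsd1 KO libraries was not the same. All 12 had positive log2 fold changes, with a median of 0.30, and 0 of 12 passed by limma, edgeR or DESeq2, with 1 at an unadjusted p under 0.05. Germinal centre markers summed to 329.8 to 415 in Lsd1 KO and 335 to 454 in Control libraries. Macrophage markers summed to 23805 to 30071 in Lsd1 KO and 20101 to 24421 in Control libraries (6 of 6 positive, 0 called by any of these tools, 2 at an unadjusted p under 0.05), and progenitor markers to 42568 to 55458 in Lsd1 KO and 40414 to 45659 in Control libraries (8 of 8 positive, 0 called by any of them or at an unadjusted p under 0.05). Endothelial markers summed to 12450.1 to 14621 in Lsd1 KO and 14475 to 16946 in Control libraries (7 of 7 negative, 0 called by limma or edgeR, 2 by DESeq2 and 2 at an unadjusted p under 0.05). Of these 7, 2 lay lower in every Lsd1 KO library, 28.6% beside 3.58% of all genes tested. Epithelial markers were low, at 149.8 to 539.9 in Lsd1 KO and 72.2 to 142 in Control libraries, with Krt5, Krt14, Krt8, Cldn7, Elf5 and Csn3 at 0 in at least 1 library. Of these 11 genes 4 were tested, all 4 were positive (median 0.55), 1 of them, Cldn3, lay higher in every Lsd1 KO library (as did Cldn7, which was not tested), and 0 were called by limma, edgeR or DESeq2, with 1 at an unadjusted p under 0.05. The highest sum was in Lsd1 KO replicate 1, where Krt5 had 237 and Krt14 137 scaled reads. Over all genes, 2119 of the 14591 tested had an unadjusted p under 0.05, and DESeq2 called 5.32%. A positive log2 fold change was found in 54.6%, and 5.06% lay higher in every Lsd1 KO library. The part of these cell types in the values of the cycle genes was not tested.

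**Figure D4:**
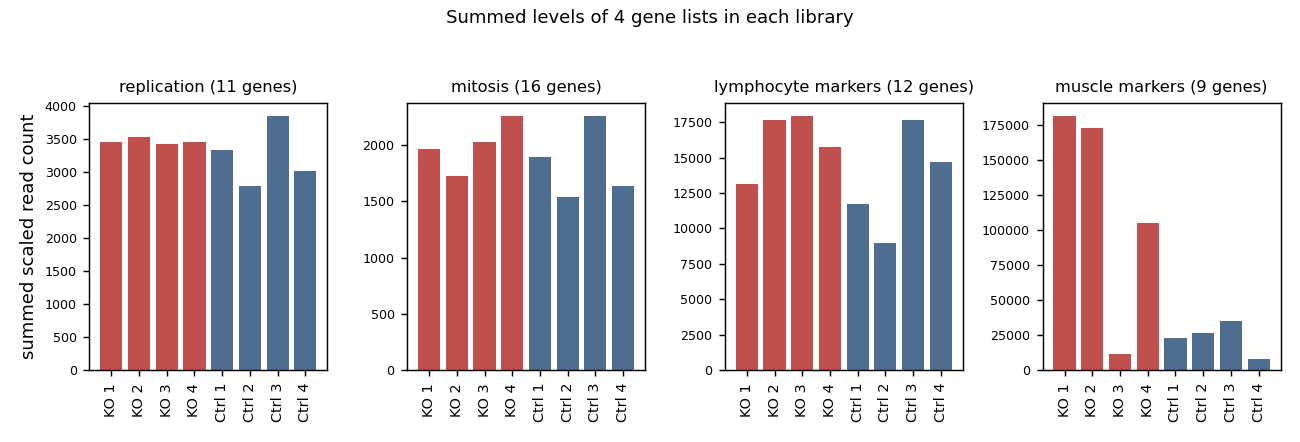
Summed scaled read counts of the 11 replication genes, the 16 mitosis genes, 12 lymphocyte markers and 9 muscle markers in each library (bars from 0, Lsd1 KO left of Control). The first 3 lists peak among Control libraries in replicate 3, and muscle markers are highest in Lsd1 KO replicates 1, 2 and 4.

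The RZZ complex, made of Rod (Kntc1), ZW10 and Zwilch, sits on the outer kinetochore and recruits dynein and checkpoint proteins. Of its 3 genes, Zwilch passed the test and fell. Zwilch had 52.9, 44.1, 50.4 and 42.4 scaled reads in Lsd1 KO replicates 1 to 4, against 104, 137, 118 and 129 in Control replicates 1 to 4. Each Lsd1 KO library was at about the same low level, and the lowest Control, replicate 1, was well above them. The log2 fold change was -1.34 (SE 0.14, 95% interval -1.66 to -1.02, limma adjusted p = 0.00169). The call held in 19 of 20 alternatives and was lost only when Lsd1 KO replicate 3 was the sole Lsd1 KO library (-1.25, adjusted p = 0.105).

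Zw10 had 429.7, 433, 424 and 406 scaled reads in Lsd1 KO replicates 1 to 4, against 401, 345, 463 and 399 in Control replicates 1 to 4. Its groups overlapped (log2 fold change 0.08, 95% interval -0.14 to 0.30, limma adjusted p = 0.749). Kntc1, the least abundant of the 43 genes per kilobase, had 27.8, 17.4, 26.1 and 21 in Lsd1 KO replicates 1 to 4, against 26.8, 5.41, 22.5 and 16 in Control replicates 1 to 4. Only Control replicate 2 stood apart (0.54, SE 0.43, adjusted p = 0.615). The difference between Zwilch and its partners in response to genotype was not tested.

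Zwilch (NM_026507) occupies chromosome 9, bases 64137144 to 64173104 of GRCm38.p6. Its span overlaps that of Lctl over 975 bases, and exons of the pair share 254 of the 4283 exon bases of Zwilch, on opposite strands. Lctl, a Klotho-related membrane protein gene, had 69.8, 104, 106 and 103 scaled reads in Lsd1 KO replicates 1 to 4, against 358, 624, 331 and 446 in Control replicates 1 to 4. It fell too, with no overlap of the groups (log2 fold change -2.16, limma adjusted p = 0.000992), and its call was lost only, of 20 alternatives, without Lsd1 KO replicates 1, 2 and 4 (-1.99, adjusted p = 0.093). Without strand, reads of the shared exons cannot be assigned to either gene, and the part of Lctl reads in the Zwilch count was not tested. The nearest genes on either side are Rpl4, 282 bases beyond the other end of Zwilch, with a log2 fold change of 0.09 (adjusted p = 0.719), and Gm39360, which was not analysed here.

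The 2 transcription factors did not pass. Foxm1, which drives the mitotic programme, had 139, 146, 129.6 and 174 scaled reads in Lsd1 KO replicates 1 to 4, against 167, 99.3, 175 and 96.4 in Control replicates 1 to 4. The Control libraries spanned the Lsd1 KO range on both sides (log2 fold change 0.18, limma adjusted p = 0.754). Exons of Foxm1 share 144 bases with Tex52 and 97 with Gm44596, on the same strand, so strand could not separate those reads. E2f1, which activates genes of DNA synthesis, had 167, 150.2, 161 and 170.2 in Lsd1 KO replicates 1 to 4, against 157, 161, 184 and 177 in Control replicates 1 to 4. Its groups overlapped (-0.06, adjusted p = 0.827).

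Beyond the 43, 146 related genes were listed in 5 groups, of which 142 were tested and 1 was called, 0.704% beside 1.64% of all genes. It belonged to the 47 genes of replication origins and forks, where 25 log2 fold changes were positive and 22 negative, with a median of 0.01. The called gene was Rfc4, a subunit of the clamp loader that places PCNA on DNA. Rfc4 had 133, 157, 189.8 and 170.2 scaled reads in Lsd1 KO replicates 1 to 4, against 96.6, 86, 114 and 92.3 in Control replicates 1 to 4. The groups did not overlap (0.73, SE 0.14, limma adjusted p = 0.0394). The call was lost in 9 of 20 alternatives, among them without Control replicate 1, 2 or 4 and without Lsd1 KO replicate 2, 3 or 4 (adjusted p 0.051 to 0.145). It was also lost without Lsd1 KO replicates 1, 2 and 4 (0.96, adjusted p = 0.14), without Control replicates 1 and 2 (0.65, adjusted p = 0.279) and with no filter on low values (adjusted p = 0.0564).

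Exons of Rfc4 share 194 of 1533 bases with Eif4a2 on the opposite strand. Eif4a2, named here after its values were seen, encodes a translation initiation helicase. It had 8435, 8375, 7849 and 8059.6 scaled reads in Lsd1 KO replicates 1 to 4, against 5437, 5966, 6225 and 5800.5 in Control replicates 1 to 4. It was higher in every Lsd1 KO library (log2 fold change 0.48, limma adjusted p = 0.0141), a call lost in 5 of 20 alternatives. These were without Control replicate 4 (adjusted p = 0.0572), without Lsd1 KO replicate 2 (0.0684) or 4 (0.0597), without Control replicates 1 and 2 (0.44, adjusted p = 0.115) and without Lsd1 KO replicates 1, 2 and 4 (0.42, adjusted p = 0.195). Reads of the shared bases cannot be assigned without strand, and the part of Eif4a2 reads in the Rfc4 count was not tested.

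The other lists of the machinery held no called gene by limma, edgeR or DESeq2. In each, 1 gene had an unadjusted p under 0.05, and these were Zwint, Anln and E2f6 in the order below. Of 25 further kinetochore and checkpoint genes the median log2 fold change was 0.05. The largest was Sgo1, which guards centromeric cohesion, with 25.1, 22.9, 25.2 and 31.4 scaled reads in Lsd1 KO replicates 1 to 4, against 19.5, 14.7, 25 and 8.25 in Control replicates 1 to 4 (0.69, limma adjusted p = 0.355). Its groups overlapped through Control replicate 3. Zwint was the only gene of these 25 whose groups did not overlap, 4% beside 8.65% of all genes tested. It was lower, at 548 to 582 in Lsd1 KO and 627 to 765 in Control libraries (-0.25, limma adjusted p = 0.21). Of 24 tested genes of the spindle and of cytokinesis, 21 were positive and 3 negative, with a median of 0.16. Over all genes tested, 54.6% were positive and the median was 0.02. Anln, an actin-binding protein gene of the cleavage furrow, had 159.8, 115, 106 and 148 in Lsd1 KO replicates 1 to 4, against 102, 80.6, 93.5 and 95.9 in Control replicates 1 to 4, without overlap (0.49, adjusted p = 0.193). Of 27 RB, E2F and DREAM genes the median was 0.06. The largest of these was E2f2, with 386, 485, 587 and 462 in Lsd1 KO replicates 1 to 4, against 335, 237, 493 and 514 in Control replicates 1 to 4, and overlapping groups (0.33, adjusted p = 0.566, and -0.08 without Control replicates 1 and 2).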

How the data were processed

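The authors aligned reads with TopHat version 2 to mm10 and counted them with HOMER, and sought changed genes with edgeR and DESeq 1.8.3, per the submitters' processing notes and the series' design text. The sources used here give neither the HOMER version nor the annotation or strandedness. The deposited values are a signal: in each library 100.0% of values above 0 and up to 200 steps were whole multiples of 1 step (tolerance 0.02), that is, read counts times 1 factor. Deposited totals were 13999923 to 14369969. Even multiples up to 40 made up 54 to 56.2%, so a step may be 1 end of a read pair, and counting error may then exceed what recovered reads imply. Between replicates of 1 group, chi-square over its degrees of freedom was 25.6 to 136, so no pair agreed within sampling noise.

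Of 23373 rows, 1 without an identifier (0 in each library) was left out. Symbols came from RefSeq GRCm38.p6 for 22523 rows and from GENCODE M21 for 128, and 721 rows kept their identifier. GRCm38.p6 has the base assembly of mm10. Exon overlaps are from GENCODE M21 and promoters from the RefSeq promoter table.

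The test was limma 3.58.1 (R 4.3.3) on log2(value + 1), with a trend of variance on mean and no term but genotype, over genes at 10 or more in at least 4 libraries, with Benjamini-Hochberg adjustment over all 14591. Alternatives were edgeR 4.0.16, DESeq2 1.42.0 and limma-voom on recovered reads, other scalings, pseudocounts and filters, and libraries left out. In the fits without libraries the genes tested were kept. The scripts were tested on simulated data. The 43 genes, the role, pathway and marker lists and the rules for naming genes were chosen with earlier results of these data known. Genes named were those called, the pair with the largest difference in each role group, the largest of each related list and its called genes, and overlapping or neighbouring genes of those called. Trp53, Zwint and E2f6 were named after their values were seen. Of the listed genes, Myh2, Cd68, Csf1r, Tacc3 and Lin9 were not analysed here. Python was 3.11.15, pandas 2.3.3 and matplotlib 3.10.9.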

Additional observations from a re-analysis of the deposited data

Results flagged for a closer look

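Lctl, the gene whose exons overlap those of Zwilch, had 69.8 scaled reads in Lsd1 KO replicate 1, apart from the 103 to 106 of the other Lsd1 KO libraries. This gap was beyond Dixon's 95% limit for 4 values, the only such case among 144 groups of 4 values examined, where chance flags about 1 in 20. These groups were the 43 genes, Kdm1a and 9 further genes named with a fold change, and the mean levels of 19 gene lists, each in both genotypes. Trp53, Zwint and single marker genes were not examined. Without that library the log2 fold change of Lctl was -2.01 (limma adjusted p = 0.00202).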

How the results depend on the processing

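No paired analysis was possible because the numbers in the sample titles are not shared between the genotypes. No scaling moved the median log2 fold change of all genes by over 0.1. With 4 libraries a group, Cdkn1a at a log2 fold change of 0.99 was not called, and the wide intervals of low genes such as Kntc1 and Ccnb1 limit what these libraries can show. Fits without Lsd1 KO replicates 1, 2 and 4 assume that the lone library varies like the Control libraries.

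All genes called numbered 776 with DESeq2, 97 without Control replicates 1 and 2 and 19 without Lsd1 KO replicates 1, 2 and 4, with 87 to 449 when 1 library was left out. Of the 43 genes, 4 were called with DESeq2 (Cdkn1a and Cdkn1c joined Ccnd2 and Zwilch), 0 without Lsd1 KO replicates 1, 2 and 4, and 1 to 2 with 1 library left out. Of the related genes 2 were called with DESeq2 and 0 with no filter on low values, without Control replicates 1 and 2, or without Lsd1 KO replicates 1, 2 and 4, with 0 to 1 when 1 library was left out. The median log2 fold change of the G1 group was 0.30 without Lsd1 KO replicates 1, 2 and 4 and -0.04 to 0.13 with 1 library left out. That of the RZZ complex was -0.63 with a filter at 50, under which Kntc1 is not tested.

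The call of Kdm1a was lost with equal library totals (-0.35, adjusted p = 0.0705), a pseudocount of 0.5 (-0.36, 0.0503), no filter (-0.36, 0.0582), a filter at 50 (-0.36, 0.0501), without Control replicates 1 and 2 (-0.43, 0.114), without Lsd1 KO replicates 1, 2 and 4 (-0.41, 0.201) and without any 1 library (-0.39 to -0.31). It was kept with edgeR, DESeq2, limma-voom, TMM, RLE and a pseudocount of 5. The causes were not tested.

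The direction of some genes that were not called turned. With 1 library left out, log2 fold changes ranged from 0.00 to 0.22 for Ccnd1, -0.17 to 0.01 for Ccne1, -0.11 to 0.05 for Ccne2, -0.08 to 0.20 for Mcm2, 0.00 to 0.28 for Mcm3, -0.05 to 0.07 for Mcm4, -0.10 to 0.06 for Tyms, -0.08 to 0.21 for Mki67, -0.06 to 0.13 for Cdk1, -0.19 to 0.10 for Aurka, -0.03 to 0.30 for Kif11 and -0.12 to 0.07 for Cenpe. Without Control replicates 1 and 2 they were 0.06 for Ccne2, -0.09 for Mcm2, -0.07 for Tk1, -0.06 for Mki67, -0.03 for Top2a, -0.19 for Ccnb1, 0.02 for Cenpe, -0.02 for Zw10 and -0.08 for E2f2. Without Lsd1 KO replicates 1, 2 and 4 they were 0.18 for Ccne1, 0.10 for Ccne2, -0.04 for Mcm2, -0.10 for Mcm3, -0.10 for Mki67, -0.01 for Kif11 and 0.06 for Cenpe. Mcm2 was at -0.01 with edgeR and -0.02 with DESeq2. Tyms was at 0.00 with edgeR and DESeq2, -0.01 with limma-voom and TMM, and -0.02 with RLE, and Mcm4 at 0.00 with equal library totals. The cause was not tested.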
